A study of Mus musculus with 8 samples.

Results

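The Mas-related G protein-coupled receptors (Mrgpr) are a rodent-expanded family of receptors on small-diameter sensory neurons, several of which respond to itch-producing compounds. The members described here were the 9 rows of the deposited count table whose gene symbol was Mrgprd, Mrgpra3, Mrgprx1, Mrgprb4, Mrgprb5, Mrgpra1, Mrgpra2a, Mrgpra2b or Mrgpre, out of 43372 rows in all. Most Mrgpr receptors act through Gq-type G proteins and phospholipase C beta, and ion channels such as TRPA1 and TRPV1 carry part of the resulting current. In mouse dorsal root ganglion, Mrgprd marks non-peptidergic nociceptors that end in the epidermis, whereas Mrgpra3 and Mrgprx1 mark a smaller itch-responsive population, and Nppb neurons form a further itch population that makes somatostatin.

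The study, whose title concerns Nppb neurons as sensors of mast cell-induced itch, sequenced RNA from hand-picked, fluorescent dorsal root ganglion neurons of 2 mouse genotypes on the C57Bl/6 strain, with 4 libraries of each. Sst libraries came from Sst-IRES-Cre mice (genotype Ssttm2.1(cre)Zjh/J), in which Cre follows the somatostatin gene. Trpv1 libraries came from Trpv1-IRES-Cre mice (genotype Trpv1tm1(cre)Bbm/J), in which Cre follows the gene for the heat and capsaicin channel. All mice received a Cre-dependent virus into the peritoneum on postnatal day 2, either AAV9-CAG-FLEX-eGFP-WPRE or the red form, AAV9-CAG-FLEX-tdTomato-WPRE. Ganglia of mice of both sexes were taken at 3 to 5 weeks of age, and 150 to 250 labelled cells were picked from each mouse. Each library is therefore a pool, and fewer cells of a type and less RNA per cell cannot be told apart. Labelling reports Cre activity since the injection, and the labels do not tie either virus to a library.

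Library totals were 9021125 to 12153109 counts in Sst libraries and 7419027 to 9568508 in Trpv1 libraries. All 9 sensory neuron markers examined had counts in all 8 libraries, and their summed level was 2850 to 3106 CPM (counts scaled to a common library size, with trimmed-mean factors) in Sst libraries and 3168 to 3431 CPM in Trpv1 libraries. Of these 9 markers only Scn9a was called, being lower in Sst libraries (log2 fold change -0.65, edgeR adjusted p = 0.0272). Of the 8 mast cell markers, 6 had 0 counts in every library, among them Mrgprb2, the mast cell member of the receptor family. The others were Cma1, with 1 count in all, and Cpa3. Cpa3 had 12 counts over the Sst libraries and 47 over the Trpv1 libraries, at most 0.812 and 2.47 CPM in a library. A count of 0 allows up to 3 counts, which is 0.271 to 0.326 CPM in a Sst library and 0.309 to 0.382 CPM in a Trpv1 library, for counting error only. The pituitary hormone genes Gh and Prl had 937 and 3245 counts in Sst replicate 2 and at least 1332 and 5122 counts in Trpv1 replicates 1 to 3, and at most 1 count each in the other 4 libraries. All Sst libraries and Trpv1 replicates 3 and 4 held Xist counts, while Trpv1 replicates 1 and 2 held none and had 825 and 860 Y-linked counts. The genes behind the labels were not called. Sst averaged 197 ± 105 CPM in Sst libraries and 93.8 ± 47.2 CPM in Trpv1 libraries (SD, n = 4 each; edgeR adjusted p = 0.0753), and Nppb averaged 41.9 ± 19.2 and 18.8 ± 7.29 CPM in Sst and Trpv1 libraries (adjusted p = 0.129). Trpv1 averaged 101 ± 68.9 CPM in Sst libraries and 195 ± 77.6 CPM in Trpv1 libraries (SD, n = 4 each; edgeR adjusted p = 0.109).

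In GRCm38, 7 of the 9 members lie in a cluster of 26 Mrgpr genes and pseudogenes on chromosome 7, chr7:47185707-48643811. Mrgpra3 is at chr7:47588950-47601372 and Mrgprx1 at chr7:48020971-48027597, both on the minus strand and 419598 bases apart. Mrgpre (chr7:143778363-143784500, minus strand) and Mrgprd (chr7:145314835-145324086, plus strand) lie outside the cluster. The coding sequence of Mrgpra3 was 83.4% identical to that of Mrgpra1, 80.8% to Mrgpra2a and 61.1% to Mrgprx1. Mrgpra2a and Mrgpra2b differed at 2 of 993 coding bases, an identity of 99.8%. The following 90 coding bases from GENCODE M21 show how close the Mrgpra members are, and a stretch in which reads of one pair cannot be told apart. They start at coding base 18 in Mrgpra3 and Mrgpra1 and at coding base 15 in Mrgpra2a and Mrgpra2b, and capitals mark bases that differ from Mrgpra3.
Mrgpra3: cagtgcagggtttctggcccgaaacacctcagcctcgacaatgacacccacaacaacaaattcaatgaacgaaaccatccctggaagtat
Mrgpra1: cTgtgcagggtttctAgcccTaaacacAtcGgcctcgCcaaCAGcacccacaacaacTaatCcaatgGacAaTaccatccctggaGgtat
Mrgpra2a: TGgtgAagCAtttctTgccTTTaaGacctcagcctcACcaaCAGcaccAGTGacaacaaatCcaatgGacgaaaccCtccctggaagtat
Mrgpra2b: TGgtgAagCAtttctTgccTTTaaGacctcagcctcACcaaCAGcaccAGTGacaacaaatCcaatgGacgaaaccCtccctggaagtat
Mrgpra1 differed from Mrgpra3 at 15 of these 90 bases. Mrgpra2a and Mrgpra2b each differed from it at 22, and not from each other.

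To see which members could exchange reads, every 50-base stretch of each member's transcripts was looked up in all other genes. Of the Mrgpra2a stretches, 87.5% occurred in another gene, and 87.1% occurred in Mrgpra2b. Of the Mrgpra2b stretches, 81.2% were shared. The share was 7.1% for Mrgpra3, 5.8% for Mrgprx1, 3.1% for Mrgpra1, 1.5% for Mrgprb4, 1.4% for Mrgpre, 0.8% for Mrgprb5 and 0.0% for Mrgprd. With 100-base stretches Mrgpra3 shared none, whereas Mrgpra2a and Mrgpra2b still shared 73.4% and 68.2%. Counts of Mrgpra2a and Mrgpra2b are therefore uncertain one by one, since the labels do not say how the counting treated reads that match several genes. Mrgpre overlaps the predicted gene Gm22064 on the opposite strand, which holds 0.5% of the 50-base stretches of Mrgpre. Within that overlap, reads of both cannot be told apart without strand information.

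**Figure D1:**
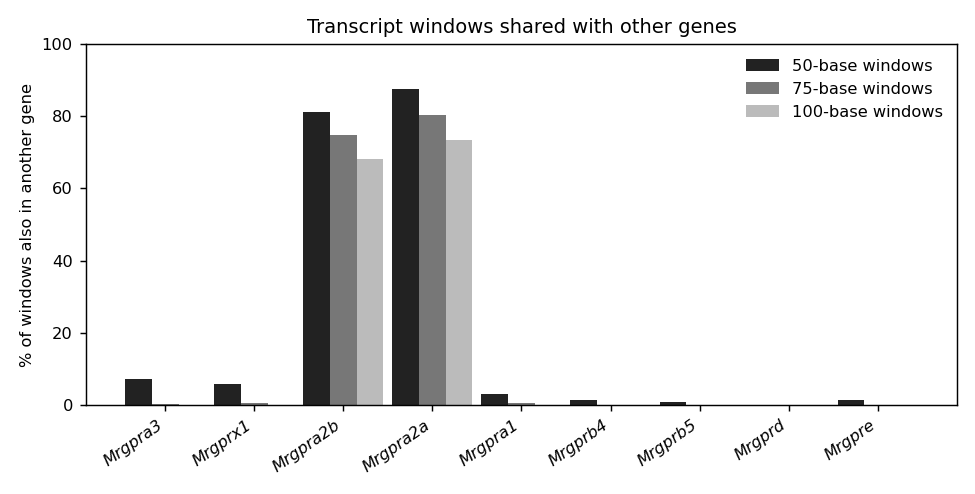
Share of each member's transcript windows that also occur in another gene (y axis, percent), for windows of 50, 75 and 100 bases (bars). Mrgpra2a and Mrgpra2b stand at 87.5% and 81.2% with 50-base windows, and every other member is at 7.1% or below.

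Of the 9 members, 8 passed the expression filter and entered the test across 11828 genes. Mrgpra3 and Mrgprx1 were lower in Sst libraries, no member was higher, and 6 members did not pass an adjusted p of 0.05 (edgeR quasi-likelihood test, Benjamini-Hochberg adjustment). Across all genes tested, 6.35% were called in either direction, 3.31% were lower in Sst libraries and 3.04% were higher. An unadjusted p under 0.05 was reached by 3 of the 8 members. The median log2 fold change of the 8 members, Sst over Trpv1, was -0.72, against 0.01 over all genes tested, and it was negative in 6 of 8. The values of 2 members did not overlap between the groups, a layout found for 11.1% of all genes tested.

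**Figure D2:**
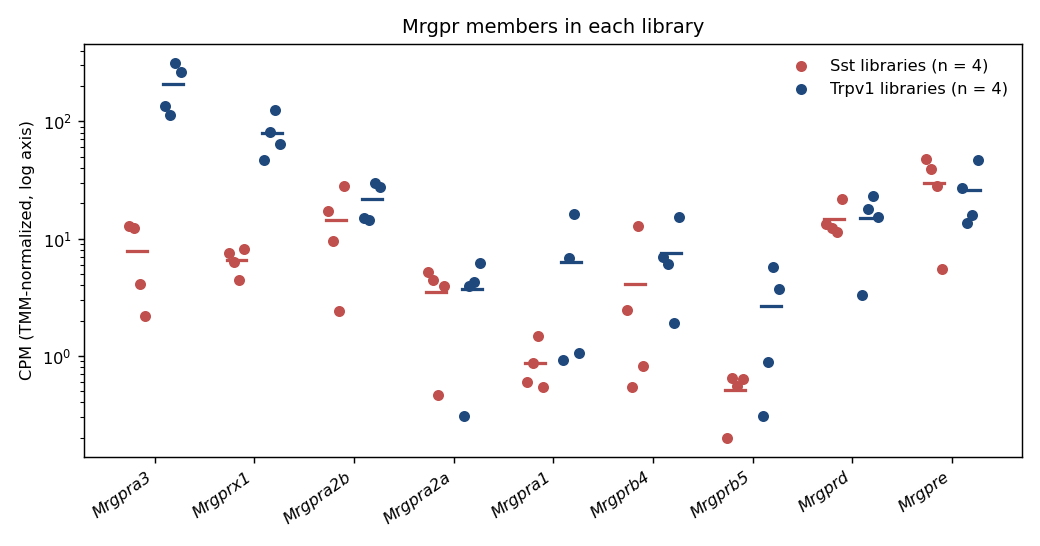
TMM-normalized CPM of each Mrgpr member (log axis) in the 4 Sst libraries (red, left) and the 4 Trpv1 libraries (blue, right), with a bar at each group's mean. The Sst points of Mrgpra3 lie between 2.17 and 12.9 CPM, below its Trpv1 points at 114 to 316 CPM, and only Mrgpra3 and Mrgprx1 have groups that do not overlap.

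Mrgpra3, the mouse receptor for chloroquine, showed the larger difference. It had 12.9, 12.3, 4.06 and 2.17 CPM in Sst replicates 1 to 4, against 135, 114, 316 and 262 CPM in Trpv1 replicates 1 to 4. Every Sst library was below every Trpv1 library, and the lowest Trpv1 value was well above the highest Sst value. The raw counts behind these values were 130, 113, 44 and 24 in Sst libraries and 1307, 897, 2499 and 2479 in Trpv1 libraries, so the gene was detected in all 8. The mean was 7.84 ± 5.52 CPM in Sst libraries and 207 ± 97.8 CPM in Trpv1 libraries (SD, n = 4 each). The log2 fold change was -4.76 (SE 0.444, 95% interval -5.67 to -3.84; edgeR adjusted p = 1.36e-07), a 27.0-fold lower level in Sst libraries. By p-value it ranked 15 among the 11828 genes tested. Within the Trpv1 group, both libraries with Y-linked counts had the lower values, 135 and 114 CPM. Fitted to the 6 libraries that held Xist counts, the comparison gave a log2 fold change of -5.22 (edgeR adjusted p = 3.71e-07).

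Mrgprx1, also named MrgprC11, is the mouse receptor for the proenkephalin fragment BAM8-22. It had 7.53, 6.29, 4.43 and 8.21 CPM in Sst libraries, against 47.1, 81.7, 124 and 64.7 CPM in Trpv1 libraries. The groups did not overlap, and the Sst libraries lay close together. The log2 fold change was -3.57 (SE 0.447, 95% interval -4.49 to -2.64; edgeR adjusted p = 9.35e-06), an 11.9-fold lower level in Sst libraries, and rank 51 by p-value. The coefficient of variation was 25.1% among Sst libraries, where counting error alone gives 12.1%, and 41.4% among Trpv1 libraries, where counting error gives 3.86%. In the Trpv1 libraries, replicate 3 was the highest for both Mrgpra3 and Mrgprx1. That library stood apart in its share of counts from mitochondrial genes, 40.2%, against 25.4% to 28.1% in the other Trpv1 libraries and 21.7% to 33% in Sst libraries, and the part of this in the member values was not tested. Without it, the log2 fold change was -4.49 for Mrgpra3 (edgeR adjusted p = 8.87e-07) and -3.27 for Mrgprx1 (adjusted p = 0.000116). The lowest library differed, being replicate 2 for Mrgpra3 and replicate 1 for Mrgprx1.

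Scaled by exonic length, Mrgpra3 exceeded Mrgprx1 in all 4 Trpv1 libraries, with ratios of 2.61, 1.27, 2.33 and 3.69. In Sst libraries the same ratio was 1.56, 1.78, 0.835 and 0.240, so the order of this pair was turned round in replicates 3 and 4, where Mrgpra3 rested on 44 and 24 counts.

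Mrgprd, the beta-alanine receptor of epidermal nociceptors, had 13.4, 12.3, 11.3 and 21.6 CPM in Sst libraries, against 3.30, 17.8, 23.2 and 15.4 CPM in Trpv1 libraries. The groups overlapped, and Trpv1 replicate 1 was the lowest of the 8. Means were 14.6 ± 4.70 CPM in Sst libraries and 14.9 ± 8.43 CPM in Trpv1 libraries (SD, n = 4 each). The log2 fold change was 0.01 (SE 0.549; edgeR adjusted p = 0.992), with a 95% interval of -1.12 to 1.15, and its sign changed with the settings given in the closing section. Levels 0.460-fold to 2.22-fold those of Trpv1 libraries lie within that interval.

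Mrgpre, a receptor with no agreed ligand, had 47.8, 39.0, 28.0 and 5.51 CPM in Sst libraries, against 27.1, 13.5, 15.9 and 46.4 CPM in Trpv1 libraries. The groups overlapped across nearly their whole range, and Sst replicate 4 was the lowest library. The log2 fold change was 0.18 (SE 0.511, 95% interval -0.88 to 1.24; edgeR adjusted p = 0.888), and leaving out Sst replicate 1 gave -0.14.

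Mrgpra2b had 17.3, 9.55, 2.40 and 27.9 CPM in Sst libraries, against 14.9, 14.4, 29.6 and 27.3 CPM in Trpv1 libraries. Its near-copy Mrgpra2a had 5.15, 4.45, 0.461 and 3.97 CPM in Sst libraries, against 0.309, 3.95, 4.30 and 6.23 CPM in Trpv1 libraries. Both overlapped between the groups, and Sst replicate 3 was the lowest Sst library for each. Their log2 fold changes were -0.58 (95% interval -1.72 to 0.57; edgeR adjusted p = 0.617) for Mrgpra2b and -0.08 (95% interval -1.73 to 1.58; adjusted p = 0.969) for Mrgpra2a. Because these copies share most of their sequence, their sum was also examined. Together they had 22.5, 14.0, 2.86 and 31.9 CPM in Sst libraries, against 15.2, 18.3, 33.9 and 33.5 CPM in Trpv1 libraries, and the sum gave a log2 fold change of -0.49 (edgeR adjusted p = 0.659, SE 0.527). Mrgpra2a took 12.5% to 31.8% of that sum in Sst libraries and 2.03% to 21.5% in Trpv1 libraries.

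Mrgpra1, a mouse receptor for bilirubin, was scarce in Sst libraries, at 0.595, 0.868, 1.48 and 0.542 CPM, against 0.927, 6.87, 16.3 and 1.06 CPM in Trpv1 libraries. Only Trpv1 replicates 2 and 3 stood clearly above the Sst libraries. Its log2 fold change of -2.73 (SE 0.974, 95% interval -4.73 to -0.74) had an unadjusted p of 0.00890 and an edgeR adjusted p of 0.0940, short of the threshold. Leaving out 1 library at a time gave log2 fold changes between -3.11 and -1.62, the last without Trpv1 replicate 3, and the 4 libraries without Gh and Prl counts gave -0.24. No alternative run called it.

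Mrgprb4, which marks neurons activated by stroking of hairy skin, had 2.48, 0.543, 12.7 and 0.812 CPM in Sst libraries, against 6.90, 6.11, 1.89 and 15.4 CPM in Trpv1 libraries. Sst replicate 3, with 138 counts, was far above the other Sst libraries and above 3 of the 4 Trpv1 libraries. The log2 fold change was -0.87 (SE 0.813, 95% interval -2.55 to 0.81; edgeR adjusted p = 0.605), without Sst replicate 3 it was -2.57 (adjusted p = 0.144), and without Trpv1 replicate 4 it was -0.24 (adjusted p = 0.924). Mrgprb5, whose coding sequence is 84.5% identical to that of Mrgprb4, had 2, 6, 6 and 7 counts in Sst libraries and 3, 7, 45 and 35 counts in Trpv1 libraries. It did not pass the expression filter, and the Trpv1 libraries high for Mrgprb5 were replicates 3 and 4. Mrgprb4 had its highest Trpv1 value in replicate 4 and its lowest in replicate 3.

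**Figure D3:**
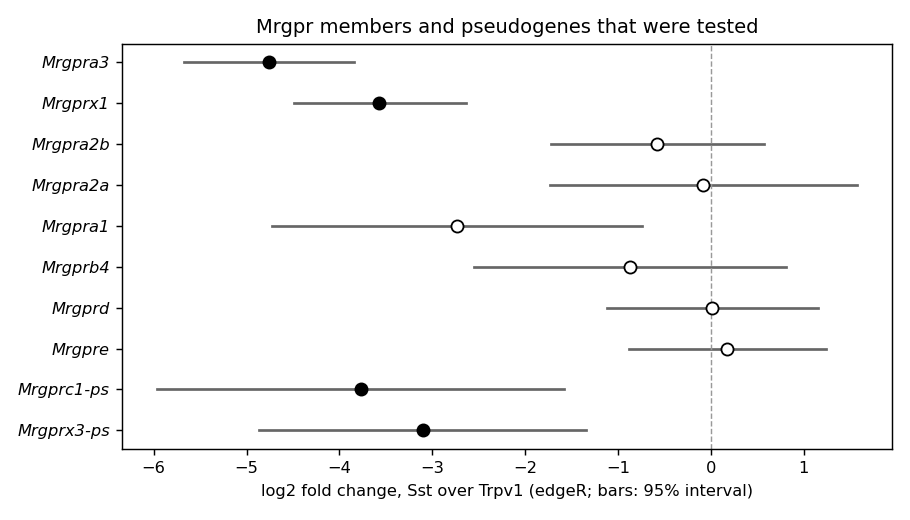
Log2 fold change, Sst over Trpv1 (x axis), with its 95% interval for the 8 tested members and 2 tested pseudogenes (rows). Filled points had an edgeR adjusted p under 0.05. Mrgpra3 at -4.76 and Mrgprx1 at -3.57 are filled, Mrgpra1 at -2.73 is not, and the other 5 members' intervals include 0.

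Levels of different members were compared per kilobase of exon. In Sst libraries the order of the medians was Mrgpra2b (10.1 CPM per kb), Mrgpre (8.89), Mrgpra3 (6.30), Mrgprx1 (5.86), Mrgprd (4.08), Mrgpra2a (3.40), Mrgprb4 (1.35), Mrgpra1 (0.672) and Mrgprb5 (0.572). Each member's range overlapped that of its neighbour in this order. In Trpv1 libraries the order was Mrgpra3 (153 CPM per kb), Mrgprx1 (62.0), Mrgpra2b (15.8), Mrgpre (5.72), Mrgprb4 (5.34), Mrgprd (5.29), Mrgpra1 (3.64), Mrgpra2a (3.32) and Mrgprb5 (2.21). Here Mrgprx1, at 39.9 to 105 CPM per kb, did not overlap Mrgpra2b, at 10.8 to 22.2 CPM per kb, and all other neighbours overlapped.

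The make-up of the family signal differed accordingly. The 9 members together had 65.4 to 107 CPM in Sst libraries and 235 to 536 CPM in Trpv1 libraries. Mrgpra3 and Mrgprx1 made up 30.7%, 35.5%, 21.2% and 20.2% of the members' length-scaled counts in Sst replicates 1 to 4, against 84.4%, 81.6%, 85.5% and 81.1% in Trpv1 replicates 1 to 4. The leading member was Mrgpra3 in every Trpv1 library. In Sst libraries it was Mrgpra2b in replicates 1 and 4, Mrgpre in replicate 2 and Mrgprb4 in replicate 3, with Mrgpra2b ahead of Mrgpre by 24.4% to 23.9% in replicate 1. Since Mrgpra2a and Mrgpra2b are uncertain one by one, their sum was also ranked. The pair then led in replicate 2 as well, with 25.8% against 24.9% for Mrgpre. Mrgprb4 took 32.2% of the length-scaled counts in replicate 3, against a median of 2.69% over the Sst libraries, and Mrgpra2b took 48.8% in replicate 4.

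**Figure D4:**
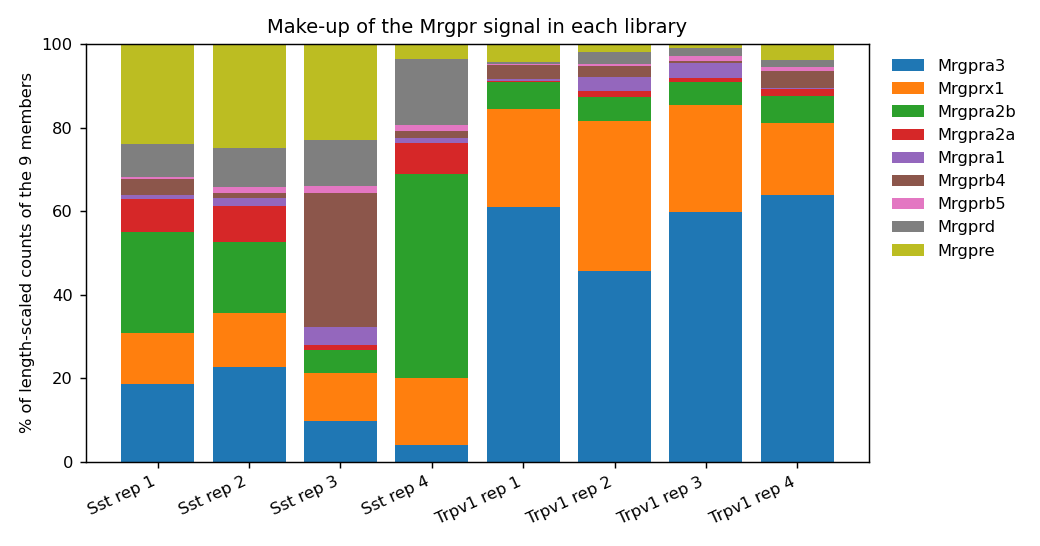
Share of the length-scaled counts of the 9 members taken by each (stacked colours, y axis in percent) in each Sst and Trpv1 library (x axis). Mrgpra3 and Mrgprx1 together fill 20.2% to 35.5% of the Sst bars and 81.1% to 85.5% of the Trpv1 bars.

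The table held 11 further Mrgpr symbols with counts and 12 Mrgpr or Mas1 symbols without any. Of those with counts, 9 were too low for the test and 2, both unprocessed pseudogenes in the cluster, were tested. Mrgprc1-ps, which lies 10016 bases from Mrgpra3, had 30, 0, 0 and 0 counts in Sst libraries and 36, 70, 166 and 76 counts in Trpv1 libraries. The Sst counts came from replicate 1 alone. Its log2 fold change was -3.77 (SE 1.07, edgeR adjusted p = 0.0303). Of its 50-base stretches, 69.2% occur in another gene, with 68.4% in Gm9322 and 1.3% in Mrgprx1. Mrgprx3-ps had 49, 5, 6 and 14 counts in Sst libraries and 23, 78, 267 and 167 counts in Trpv1 libraries, and its log2 fold change was -3.10 (edgeR adjusted p = 0.0277, SE 0.860). Here Sst replicate 1 overlapped the Trpv1 libraries. Without Sst replicate 1 every Sst library stood at 0 counts of Mrgprc1-ps, and leaving out any other library gave -4.05 to -3.19, with the call lost without Sst replicate 2, 3 or 4 or Trpv1 replicate 3. Leaving out 1 library gave -4.25 (without Sst replicate 1) to -2.46 (without Trpv1 replicate 3) for Mrgprx3-ps, and its call was lost without Sst replicate 2, 3 or 4 or Trpv1 replicate 3 or 4. Each of these calls was lost in 9 of 18 alternatives, with adjusted p from 0.0204 to 0.447 for Mrgprc1-ps and from 0.00682 to 0.289 for Mrgprx3-ps.

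Among the untested symbols, Mrgpra9 had 7, 2, 0 and 0 counts in Sst libraries and 1, 10, 83 and 20 counts in Trpv1 libraries. Mrgprc2-ps, Mrgprc7-ps and Mrgpra6 had 0 counts in all Sst libraries and 33, 7 and 5 counts in all over the Trpv1 libraries. Mrgprh and Mrgprf showed the opposite layout, with 17 and 9 counts over the Sst libraries and 0 over the Trpv1 libraries. Mrgpra4 had 1 count over the Sst libraries and 8 over the Trpv1 libraries, Mrgprb12-ps had 26 and 1, and Mrgprb13 had 1 and 0. With counts pooled over each group and a floor of 3 counts, Mrgprc2-ps was at least 13.0-fold lower in Sst libraries and Mrgprh at least 4.80-fold higher. These bounds cover counting error only. Single libraries overlapped for both genes, since Trpv1 replicate 1 had 0 counts of Mrgprc2-ps and Sst replicate 4 had 0 counts of Mrgprh.

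Genes of G protein signalling and of channels downstream were examined as a list. It held Gq-type subunits and phospholipase C beta genes, but also Gi/o-type subunits (Gnai1, Gnai2, Gnai3 and Gnao1), arrestins and Adrbk1. Of its 23 genes, 21 were tested. In Sst libraries 1 was higher and 1 was lower, against 3.04% and 3.31% of all genes tested. The median log2 fold change of the list was -0.05, against 0.01 over all genes tested. The gene that was lower was Trpa1, the irritant channel through which Mrgpra3 and Mrgprx1 excite itch neurons. Trpa1 had 19.4, 9.87, 6.37 and 21.8 CPM in Sst libraries, against 161, 204, 144 and 239 CPM in Trpv1 libraries. The groups were wide apart, at a log2 fold change of -3.70 (edgeR adjusted p = 1.60e-07, SE 0.349), and all 19 alternatives kept the call. The gene that was higher was Ano1, a calcium-activated chloride channel, with 4.66, 3.91, 11.0 and 3.07 CPM in Sst libraries and 0 counts in every Trpv1 library (edgeR adjusted p = 0.0198). With counts pooled over each group and a floor of 3 counts, Ano1 was at least 66.7-fold higher in Sst libraries. This bound covers counting error only. The edgeR fit, which includes the spread between libraries, gave a log2 fold change of 8.77 (SE 2.22, 95% interval 4.15 to 13.39). The lower limit of that interval is a 17.7-fold higher level. The call of Ano1 was lost in 5 of 18 alternatives, those without Trpv1 replicate 1 or 3 among them. The G protein subunit Gna15 had no counts and phospholipase Plcb2 had 2. The remaining 19 tested genes of the list, Gnaq and Plcb3 among them, did not pass the threshold.

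The second list held 12 transcription and neurotrophic factor genes that direct the development of Mrgpr-expressing neurons. Of 11 tested, 4 were lower in Sst libraries, against 3.31% of all genes tested, and 7 did not pass the threshold. The median log2 fold change of the list was -0.53, against 0.01 over all genes tested. Runx1, the transcription factor required for Mrgpr expression in mice, was named after its values were seen, and was not called. It had 165, 215, 143 and 292 CPM in Sst libraries, against 150, 209, 218 and 149 CPM in Trpv1 libraries (log2 fold change 0.17, 95% interval -0.34 to 0.69; edgeR adjusted p = 0.760). Its groups overlapped throughout.

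Cbfb is the partner subunit of Runx proteins. It had 152, 113, 137 and 110 CPM in Sst libraries, against 273, 204, 284 and 215 CPM in Trpv1 libraries. No value overlapped (log2 fold change -0.93, SE 0.227; edgeR adjusted p = 0.0133). Ret, the signalling receptor for GDNF-family factors, averaged 192 ± 52.9 CPM in Sst libraries and 393 ± 59.4 CPM in Trpv1 libraries (SD, n = 4 each; log2 fold change -1.03, edgeR adjusted p = 0.00592). Klf7, a zinc finger factor of sensory neurons, averaged 1042 ± 242 and 1573 ± 166 CPM in Sst and Trpv1 libraries (log2 fold change -0.59, adjusted p = 0.0366). The call of Klf7 was lost in 13 of 19 alternatives, which included leaving out any single library other than Sst replicate 4. The call of Cbfb was lost in 5 of 19, among them those without Sst replicate 2 (adjusted p = 0.0506) or Trpv1 replicate 1 (adjusted p = 0.0558), and that of Ret in 2 of 19. Without the libraries holding Gh and Prl counts, which leaves 3 Sst libraries and 1 Trpv1 library, all 4 calls were lost.

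The third list held 16 genes known to accompany Mrgprd or its neighbours in non-peptidergic nociceptors, 15 of them tested. In Sst libraries 1 was higher and 3 were lower, against 3.04% and 3.31% of all genes tested. The median log2 fold change of the list was -0.22, against 0.01 over all genes tested. Ptgdr, a prostaglandin D2 receptor, had 8.53, 3.69, 3.32 and 7.13 CPM in Sst libraries, against 29.1, 39.0, 48.3 and 47.9 CPM in Trpv1 libraries (a difference of -2.84 ± 0.497 SE on the log2 scale; edgeR adjusted p = 0.000620). Synpr, a synaptic vesicle protein gene, had 20.4, 21.6, 6.27 and 3.16 CPM in Sst libraries, against 42.2, 60.8, 119 and 66.1 CPM in Trpv1 libraries (a log2 difference of -2.51; edgeR adjusted p = 0.00147). For both genes the groups did not overlap, and each call was lost in 1 of 19 alternatives, that without the libraries holding Gh and Prl counts.

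Adra2a, an adrenergic receptor, had 0.991, 0, 0 and 0 CPM in Sst libraries, against 12.3, 14.3, 1.52 and 6.13 CPM in Trpv1 libraries (edgeR adjusted p = 0.0163). Its Sst level rested on 10 counts in replicate 1, and the call was lost in 6 of 18 alternatives, that without Sst replicate 3 among them. Carhsp1, an RNA-binding protein gene, was the one that was higher, at 134 ± 33.7 CPM in Sst libraries and 62.5 ± 28.3 CPM in Trpv1 libraries (SD, n = 4 each; log2 fold change 1.09, edgeR adjusted p = 0.0354), and its call was lost in 10 of 19 alternatives, which included leaving out any single library other than Sst replicate 2 or Trpv1 replicate 4. The other 11, among them the ATP-gated channel P2rx3, did not pass.

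**Figure D5:**
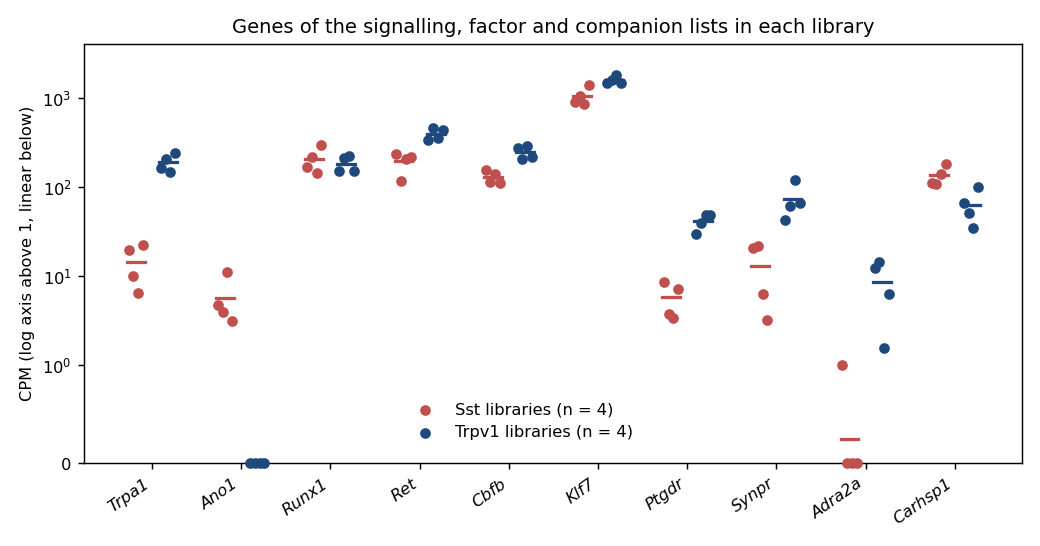
CPM (log axis above 1, linear below) of genes of the signalling, factor and companion lists in the 4 Sst libraries (red, left) and the 4 Trpv1 libraries (blue, right), with a bar at each group's mean. Trpa1 lies at 6.37 to 21.8 CPM in Sst libraries and 144 to 239 CPM in Trpv1 libraries, Ano1 is at 0 in every Trpv1 library, and Runx1 overlaps.

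Precursors of peptides that act on Mrgpr receptors formed a list of 6 genes, none of which passed the filter. Pomc, the most abundant, had 0, 5, 0 and 0 counts in Sst libraries and 1501, 468, 7 and 0 counts in Trpv1 libraries. It was counted only in the 4 libraries that also held Gh and Prl counts, and the part of pituitary RNA in it was not tested. The other 5, including Penk, the source of BAM8-22, had at most 4 counts in any library.

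Markers of other neuron classes moved with the difference in Mrgpra3 and Mrgprx1. All 4 peptidergic nociceptor markers were lower in Sst libraries, with a summed level of 41.1 to 96.6 CPM, against 1822 to 2535 CPM in Trpv1 libraries. All 6 markers of myelinated neurons were higher in Sst libraries, at 1050 to 1874 CPM, against 213 to 428 CPM in Trpv1 libraries. Their part in the difference in Mrgpra3 and Mrgprx1 was not tested. Satellite glia and Schwann cell markers summed to 565 to 887 CPM in Sst libraries and 701 to 1025 CPM in Trpv1 libraries, with a smallest adjusted p of 0.0724 (edgeR) for Pmp22. Fibroblast markers summed to 56.1 to 435 CPM in Sst libraries and 75.5 to 325 CPM in Trpv1 libraries. Macrophage markers reached 1.41 to 8.43 CPM in Sst libraries and 2.40 to 26.1 CPM in Trpv1 libraries, and endothelial markers 3.87 to 24.8 and 0.758 to 28.6 CPM in Sst and Trpv1 libraries. The macrophage marker C1qa had 0 counts in every library. Of the macrophage and endothelial markers, 1 of 7 and 2 of 5 were abundant enough for the test, and no marker of these 4 classes was called.

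The genes most like a member over the 8 libraries were ranked by the root mean square difference between log2 CPM profiles, each centred on its own mean, among 6949 genes. Mrgpr and Mas1 symbols, pseudogenes marked -ps and predicted or clone-named genes were left out of this ranking. For Mrgpra3 the closest genes were Calca (0.472), S100a11 (0.620), Pkib (0.706) and Epha5 (0.711). Calca, which encodes the neuropeptide CGRP, had 57.2, 55.0, 19.7 and 18.7 CPM in Sst libraries, against 1089, 1032, 1104 and 1546 CPM in Trpv1 libraries. As for Mrgpra3, the Sst values of Calca were higher in replicates 1 and 2 than in replicates 3 and 4. Placed into that ranking, which had left it out, Mrgprx1 would stand at rank 17 for Mrgpra3, at a difference of 1.11. For Mrgprx1 the closest genes were Lcorl (0.415), Nfib (0.435), Necab1 (0.444) and Ptgdr (0.453). Lcorl had 12.6, 11.3, 13.2 and 14.3 CPM in Sst libraries, against 184, 215, 364 and 148 CPM in Trpv1 libraries, and its highest library, Trpv1 replicate 3, was also the highest for Mrgprx1. For Mrgprd they were Pop5 (0.304), Preb (0.332), Gpr26 (0.357) and Pqlc1 (0.369), none of which was called. A profile of 8 libraries in 2 groups is dominated by the group difference where there is one, and the libraries share depth and preparation. The genes were picked for likeness over these same libraries, so shared high or low libraries within a group are part of that choice.

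Promoter sequence, from 250 bases before to 50 bases after the start, was available from RefSeq (GRCm38.p6) for 8 members, Mrgpra3 not being among them. The promoters of Mrgpra2a and Mrgpra2b were identical over all 300 bases, and those of Mrgprb4 and Mrgprb5 were 82.0% identical. The Mrgpra2b window, chr7:47489533-47489832, lay inside its GENCODE gene (chr7:47463806-47528862, minus strand). Its RefSeq start is therefore not the outermost GENCODE start, and the identity concerns the RefSeq start only. Because Runx1 is the regulator known for this family, the Runx motif TGTGGT or its reverse complement ACCACA was searched on both strands. It occurred in 1 of 8 member promoters, that of Mrgpra1, and in 16.8% of 32851 promoters of the same length. The promoters of Mrgprx1, the called member with an entry (chr7:48027548-48027847, minus strand), and of Mrgpra1 (chr7:47354191-47354490, minus strand) are shown 5′ to 3′ with the motif in capitals where it occurs.
Mrgprx1 promoter: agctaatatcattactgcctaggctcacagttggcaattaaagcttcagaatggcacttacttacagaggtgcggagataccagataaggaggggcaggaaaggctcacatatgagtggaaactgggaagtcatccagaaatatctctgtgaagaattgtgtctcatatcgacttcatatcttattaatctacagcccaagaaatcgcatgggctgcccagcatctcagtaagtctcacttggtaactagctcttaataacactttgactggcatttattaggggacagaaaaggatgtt
Mrgpra1 promoter: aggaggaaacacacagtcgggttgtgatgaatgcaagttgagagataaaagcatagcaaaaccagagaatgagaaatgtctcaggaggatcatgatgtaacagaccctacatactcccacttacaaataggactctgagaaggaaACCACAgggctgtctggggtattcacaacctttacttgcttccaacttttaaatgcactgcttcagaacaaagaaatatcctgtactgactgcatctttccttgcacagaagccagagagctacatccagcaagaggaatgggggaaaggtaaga
These letters are not in the Mrgprx1 window, which says nothing about binding of the factor there or elsewhere.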

How the data were processed

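RNA was measured in 8 libraries, 4 from Sst and 4 from Trpv1 mice. The deposited table holds whole-number counts per gene symbol, made by the authors; per the submitters' processing notes, bcl2fastq 2.17, Trimmomatic 0.33 and featureCounts were used with GRCm38. No source used here gives the aligner, the annotation, the strand setting or the handling of multiply matching reads. Cells were picked in sessions with 1 sample per genotype, per the labels' protocols, but whether replicate numbers mark sessions is not given, so the main fit has no block.

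Genes were kept with edgeR 4.0.16 (filterByExpr, minimum count 10), scaled by TMM and tested with the robust quasi-likelihood F test (R 4.3.3), Sst over Trpv1, as a two-sided test, adjusting p by Benjamini-Hochberg across 11828 genes, with a threshold of 0.05. The biological coefficient of variation was 69.1%. Intervals are 95%. Alternatives used DESeq2 1.42.0, limma 3.58.1 (voom), other filters and scalings, a replicate block, an Xist term and left-out libraries. CPM per kilobase used union exon lengths of GENCODE M21. Coding and promoter identities came from global alignments (Biopython 1.88).

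Named genes were all 9 members, every other Mrgpr or Mas1 symbol with a count, of each list the called genes or else the most abundant, and for Mrgpra3, Mrgprx1 and Mrgprd the 4 most similar genes (mean log2 CPM 3 or more). One gene called in the factor list is not reported here. The members and lists were chosen with earlier results of these data known. Replicates were never closer than sampling noise allows (chi-square per degree of freedom 40 to 100). Separate mice per library are implied by the protocol but not tied to each label, so p-values measure the spread between these samples.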

Additional observations from a re-analysis of the deposited data

Results flagged for a closer look

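In 12 of 77 groups of 4 libraries examined, 1 library stood apart from the other 3 by more than the Dixon 95% limit. Chance exceeds this limit in about 1 in 20 groups of continuous values, but in 8 of the 12 the other 3 libraries were at 0, where any count exceeds it, so these totals are not set against chance. Among the members this concerned Mrgprb4, at 12.7 CPM in Sst replicate 3 against 0.543 to 2.48 CPM in the other Sst libraries. Among the pseudogenes, Sst replicate 1 stood above the other Sst libraries for Mrgprc1-ps (2.97 CPM, the others at 0) and Mrgprx3-ps (4.86 CPM, the others at 0.543 to 1.26). Sst replicate 1 was also the only Sst library with counts of Mrgprf (0.892 CPM), Mrgpra4 (0.0991 CPM), Mrgprb13 (0.0991 CPM) and Adra2a (0.991 CPM). Mrgpra6 was counted in Trpv1 replicate 3 alone among all libraries (0.632 CPM), and Mrgprb12-ps in Trpv1 replicate 1 alone among the Trpv1 libraries (0.103 CPM). Pomc was counted in Sst replicate 2 alone among the Sst libraries (0.543 CPM). Calca reached 1546 CPM in Trpv1 replicate 4, above 1032 to 1104 CPM in the other Trpv1 libraries. Pqlc1 reached 50.1 CPM in Sst replicate 4, above 18.5 to 20.9 CPM in the other Sst libraries.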

How the results depend on the processing

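Mrgpra3 and Mrgprx1 were the members called in every alternative run, with log2 fold changes of -5.36 to -4.43 (largest adjusted p 0.000918) and -3.82 to -3.23 (largest adjusted p 0.0489, in the 4 libraries without Gh and Prl counts, an alternative chosen after seeing the data). That alternative holds 3 Sst libraries and 1 Trpv1 library, which is assumed to vary like the others. Leaving out 1 library at a time kept 2 members called each time. The number of genes called among all tested was 751, and it was 435 with a term for Xist, 360 in the libraries with Xist, 493 with the quasi-likelihood test of earlier edgeR releases (also chosen after seeing the data), 71 in the libraries without Gh and Prl, and 498 (without Sst replicate 3) to 770 with 1 library left out.

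Calls in the signalling list, 2 in the main setting, were 4 with limma voom, 1 in the libraries with Xist, 1 in those without Gh and Prl, and 1 to 4 with 1 library left out. Calls in the factor list, 4 in the main setting, were 2 without robust dispersion, 2 with the earlier test, 1 with the Xist term, 0 in the libraries with Xist, 0 in those without Gh and Prl, and 1 (without Trpv1 replicate 1) to 3 with 1 library left out. Calls in the companion list, 4 in the main setting, were 2 with the Xist term, 2 in the libraries with Xist, 2 with the earlier test, 0 in those without Gh and Prl, and 2 (without Sst replicate 3) to 4 with 1 library left out. The cause was not tested. Runs with libraries left out also held fewer samples, and the part of that was not tested either.

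With replicate number as a block, 572 genes, 2 members, 3 signalling genes, 2 factor genes and 4 companion genes were called. Same-numbered libraries did not deviate together (correlations of -0.0296 to 0.0316), so the numbers were not taken as pairs.

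Signs that turned belonged to genes that were not called. The log2 fold change of Mrgprd was -0.04 with DESeq2, -0.38 with the Xist term, -0.35 in the libraries with Xist, -0.03 with the earlier test, and -0.33 to 0.31 with 1 library left out. Mrgpra2a was 0.57 with limma voom and -0.48 to 0.37 with 1 library left out. Mrgpre was -0.10 with the Xist term, -0.07 in the libraries with Xist, -0.76 in those without Gh and Prl, and -0.14 to 0.65 with 1 library left out. Pop5 was -0.02 with the Xist term and 0.00 in the libraries with Xist. Preb was -0.04 with DESeq2, -0.45 with the Xist term, -0.43 in the libraries with Xist, -0.03 with the earlier test, and -0.30 to 0.63 with 1 library left out. Gpr26 was 0.30 with limma voom, 0.01 with the replicate block, and -0.39 to 0.40 with 1 library left out, and Pqlc1 was -0.65 to 0.12 with 1 library left out. Mrgpra2a, Mrgpra1, Ano1, Adra2a and the pseudogenes did not pass the stricter filter.
For symbols with few counts, counting error in a Sst library is large: 43.6% for Mrgprb5 and 33.3% for Mrgpra1 as a coefficient of variation. Among Trpv1 libraries, counting error was 21.1% for Mrgprb5 and 14.1% for Mrgpra1. The coefficients of variation found there were 94.8% and 115%, so the spread between Trpv1 libraries went beyond counting error.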
